A study of Mus musculus with 24 samples.

Results

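The replication-dependent histone genes encode the histones that package newly copied DNA. They were taken as every row of the all-sample count table whose symbol begins with Hist1h, Hist2h, Hist3h or Hist4 and which held at least 10 counts summed over the 24 libraries. This gave 65 genes of the 21878 rows: 17 encode H2A, 17 H2B, 13 H4, 12 H3 and 6 the linker histone H1. The Hist1 cluster on chromosome 13 holds 52 of them, the Hist2 cluster on chromosome 3 holds 10, the Hist3 cluster on chromosome 11 holds 2 and Hist4h4 on chromosome 6 stands alone. Of the 67 rows with such a symbol, 2 fell outside: Hist1h2aa with 0 counts and Hist1h2ba with 4. The lowest genes inside were Hist1h1t with 17 counts and Hist1h4m with 18.

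RNA was sequenced from 21 thymic lymphomas of female B6C3F1 mice and from 3 normal thymus samples. The mice had received 4 weekly whole-body doses of 1.6 Gy of carbon ions, the first at 4 to 5 weeks of age. The authors divided the lymphomas into 11 with and 10 without an Ikzf1 mutation, here the mutated and the unmutated set; Ikzf1 encodes Ikaros, a zinc finger transcription factor of lymphoid cells. Only the column headings of filtered tables that the authors deposited give these sets. The treatment label also stands on the normal thymus samples, whose titles carry an unexplained "7W". Nothing in the labels ties a lymphoma to a separate mouse, so the tests measure sample-to-sample spread. RNA came from single-cell suspensions, and all libraries carry 1 batch date.

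Replication-dependent histone genes lie in clusters, mostly lack introns and are transcribed mainly during S phase, when the coactivator Npat is active at the histone locus bodies. Their mRNAs normally end just after a short stem-loop that binds the protein Slbp, and carry no poly(A) tail. When DNA synthesis stops these mRNAs are rapidly degraded. Some of the genes also give longer, polyadenylated transcripts, which have been described in differentiated and in cancer cells. The libraries here were made with oligo(dT) beads, so the counts come from tailed or otherwise captured molecules and not from the whole histone mRNA pool. Which fraction of each mRNA was captured was not tested.

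The stem-loop is shown for the genes on which the results turn, because it marks the normal end of the mRNA. A search of the GENCODE transcripts on GRCm38 found a stem of 6 paired bases and a loop of 4 in transcripts of 44 of the 65 genes. In the sites below, written 5′ to 3′ on the strand of the gene, capitals mark the stem and the lower-case letters between them the loop.
Hist1h2ao: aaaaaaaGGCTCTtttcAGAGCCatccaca
Hist1h2ap: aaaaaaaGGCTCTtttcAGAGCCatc
Hist1h2ag: caacaaaGGCTCTtttcAGAGCCacctaac
Hist1h2bm: acacaaaGGCTCTtttcAGAGCCactaagc
Hist1h2bk: caccaaaGGCTCTtttaAGAGCCactaaac
Hist1h3c: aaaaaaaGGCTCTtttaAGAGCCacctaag
Hist1h4d: aaccaaaGGCCCTtttcAGGGCCactacct
Hist1h4b: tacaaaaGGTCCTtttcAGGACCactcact
Hist1h4i: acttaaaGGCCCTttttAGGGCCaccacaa
Hist1h2ao and Hist1h2ap, the most abundant pair, carry theirs at chr13:21810891-21810920 on the plus strand and at chr13:21833026-21833051 on the minus strand. The site of Hist1h2ag lies at chr13:22042476-22042505 on the minus strand, that of Hist1h2bm at chr13:21722499-21722528 on the plus strand and that of Hist1h2bk at chr13:22036293-22036322 on the plus strand. The Hist1h3c site is at chr13:23745040-23745069 on the minus strand and the Hist1h4d site at chr13:23581943-23581972 on the plus strand. Hist1h4b has its site at chr13:23757359-23757388 on the plus strand and Hist1h4i at chr13:22040959-22040988 on the minus strand. One 16-base form, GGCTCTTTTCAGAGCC, occurred in 26 genes of the H1, H2A, H2B and H3 families. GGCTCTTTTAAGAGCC occurred in a further 6, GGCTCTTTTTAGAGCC in 1, and 3 forms with other stems only in H4 genes (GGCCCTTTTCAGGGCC in 7, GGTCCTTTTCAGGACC in 2 and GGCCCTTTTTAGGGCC in 2). In 22 genes the annotated transcript ran more than 100 bases past the stem-loop, among them Hist1h1d by 4884 bases, Hist1h4d by 770 and Hist1h4i by 330. That of Hist1h2ao ended 31 bases after it and that of Hist1h3c 74. No stem-loop was found in 21 genes, of which 9 have models that end at the stop codon.

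The promoters of 3 genes called between the sets are shown, 1 each for H2B, H3 and H4, because their matches differ by family. RefSeq windows on GRCm38.p6 were matched for 60 of the 65 genes and span 300 bases around the RefSeq start, on the strand of the gene. Capitals mark matches to CCAAT, the core of the CCAAT box. They also mark the TATA box, spelled TATAAA here, and the octamer ATTTGCAT. Both strands were searched, so capitals may hold the reverse complement. The Hist1h4b window has no match.
Hist1h2bk: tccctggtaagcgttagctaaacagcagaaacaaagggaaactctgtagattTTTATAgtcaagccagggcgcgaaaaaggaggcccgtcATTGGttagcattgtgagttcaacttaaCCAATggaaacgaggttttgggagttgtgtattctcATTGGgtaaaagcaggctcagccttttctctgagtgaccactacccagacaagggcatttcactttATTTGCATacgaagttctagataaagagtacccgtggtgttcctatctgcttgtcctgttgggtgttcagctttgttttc
Hist1h3c: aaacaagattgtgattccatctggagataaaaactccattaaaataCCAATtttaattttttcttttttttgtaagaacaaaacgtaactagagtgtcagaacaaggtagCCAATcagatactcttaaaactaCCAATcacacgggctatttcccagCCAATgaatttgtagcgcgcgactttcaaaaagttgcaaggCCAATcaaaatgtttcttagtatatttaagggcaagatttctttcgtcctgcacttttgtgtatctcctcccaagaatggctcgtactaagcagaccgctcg
Hist1h4b: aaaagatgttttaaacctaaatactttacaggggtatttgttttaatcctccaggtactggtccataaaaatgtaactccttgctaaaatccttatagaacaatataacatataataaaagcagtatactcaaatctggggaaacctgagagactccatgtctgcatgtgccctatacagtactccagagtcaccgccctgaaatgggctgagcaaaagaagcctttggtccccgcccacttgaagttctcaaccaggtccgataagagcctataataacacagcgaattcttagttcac
The Hist1h2bk window is chr13:22035571-22035870 on the plus strand, the Hist1h3c window chr13:23745472-23745771 on the minus strand and the Hist1h4b window chr13:23756687-23756986 on the plus strand. CCAAT was present in 85% of the 60 genes, against 37.41% of all 32851 RefSeq windows of this length. It stood in every matched gene of the H1, H2A, H2B and H3 families and in 25% of the 12 H4 genes. TATAAA was present in 55% of the histone genes, against 13.62% of all windows. By family it stood in 66.7% of H1, 58.8% of H2A, 46.7% of H2B, 40% of H3 and 66.7% of H4 genes, so the Hist1h4b window is not typical of H4 for this motif. The octamer was present in 20%, against 1.74% of all windows, and was found in 35.3% of H2A and 40% of H2B genes and in no H1, H3 or H4 gene. Hist1h2be has a pair of windows and was counted once. These matches describe the letters in the windows and not bound sites.

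The lymphoma libraries held 15 to 36.6 M counts and the thymus libraries 24.5 to 27.5 M. The 65 genes held 0.0111 to 0.0348% of the counts of a lymphoma and 0.0197 to 0.0250% of those of a thymus library. A typical member was thinly counted: the median over members of their median count per library was 14.5. Many copies are alike in sequence. Of the 100-base stretches of each gene's transcripts, a median of 61.5% occurred in no other gene, and in 28 genes fewer than 50% did. Annotated gene overlaps touched 23 genes, and no source used here gives the strand of counting, so values of single copies are uncertain where the sequence is shared.

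Levels between genes were compared in the deposited TPM, which is per length. Hist1h2ao, an H2A gene, stood first with a mean of 414 TPM over the 24 libraries. Hist1h2ap, its near-copy, followed with 91.4 TPM, and Hist1h4i, an H4 gene, with 58.7 TPM. The next were Hist3h2ba (H2B, 29.3 TPM), Hist1h1c (the H1.2 linker histone, 25.4 TPM), Hist1h2af (H2A, 24.9 TPM), Hist1h3c (H3, 20.9 TPM), Hist1h2bc (H2B, 20.4 TPM), Hist2h2be (H2B, 19.3 TPM) and Hist1h4d (H4, 16.9 TPM). The median member had 4.13 TPM and the lowest 0.0844 TPM. Hist1h2ao ranged from 122 to 668 TPM in the lymphomas, with a median of 407, and had 421, 536 and 582 TPM in the thymus libraries. Of the 100-base stretches of Hist1h2ao and Hist1h2ap only 7.3 and 7.8% were their own, and most were common to both, so the division of reads between this pair is uncertain.

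**Figure D1:**
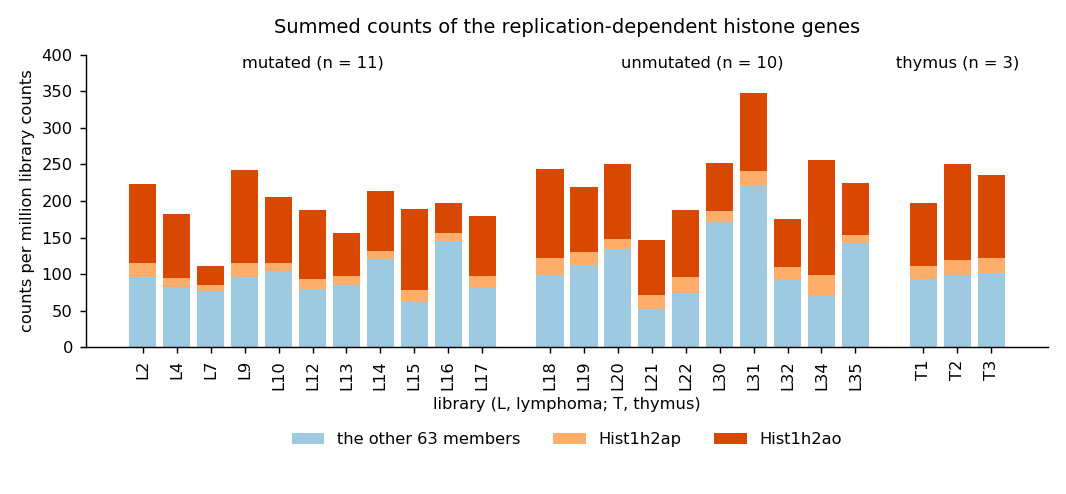
Summed level of the 65 genes (CPM, not TMM-scaled) (vertical axis) in each library, with the 11 mutated lymphomas on the left, the 10 unmutated lymphomas in the middle and the 3 thymus libraries on the right. Bars are divided into Hist1h2ao, Hist1h2ap and the other 63 genes; lymphoma 31 stands highest at 348 and lymphoma 7 lowest at 111.

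Summed over all 65 genes, histone counts overlapped between lymphomas and thymus. The range was wider among the 21 lymphomas than among the 3 thymus libraries, but a range tends to widen with the number of libraries. The sum was 209 ± 49.2 CPM in lymphomas (SD, n = 21), against 228 ± 27.2 in thymus (SD, n = 3). Between the sets it was 190.0 ± 35.2 in the mutated (n = 11) and 230.3 ± 55.3 in the unmutated lymphomas (n = 10). The plot of summed counts by library shows that Hist1h2ao gave a large share of the histone counts. Without it, the other 64 genes held 57.3% of them over all libraries. Hist1h2ao was the most counted member in every library but lymphoma 7, where Hist2h2be was. Lymphoma 7 also had the lowest sum of all libraries, 111 CPM. Lymphoma 31 had the highest, 348, and differed from lymphoma 34 (256) in make-up: Hist1h2ao gave 30.6% of the histone counts in lymphoma 31 and 61.6% in lymphoma 34. Without Hist1h2ao and Hist1h2ap, the other 63 genes summed to 93.5 ± 23.3 CPM in mutated lymphomas, 117 ± 51.4 in unmutated lymphomas and 98.0 ± 3.98 in thymus. In bulk samples, fewer cells in S phase and less histone RNA per cell cannot be told apart.

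By family, H3 and H4 had the widest relative range between lymphomas. The 12 H3 genes, core histones of the nucleosome's centre, summed to 7.95 ± 2.72 CPM in mutated lymphomas, 18.3 ± 12.8 in unmutated lymphomas and 8.17 ± 1.91 in thymus (SD, n = 11, 10 and 3). The 13 H4 genes, whose proteins pair with H3, summed to 15.8 ± 4.76 CPM in mutated lymphomas, 24.7 ± 12.3 in unmutated lymphomas and 13.8 ± 1.14 in thymus. The 6 H1 genes, whose proteins bind the linker DNA, summed to 12.8 ± 4.15 CPM in mutated lymphomas, 13.8 ± 8.74 in unmutated lymphomas and 7.98 ± 0.904 in thymus. The 17 H2B genes summed to 43.9 ± 16.6 CPM in mutated lymphomas, 39.1 ± 15.8 in unmutated lymphomas and 52.6 ± 0.871 in thymus; 16 of 21 lymphomas lay below the thymus range. Hist2h2be, Hist1h2bc and Hist3h2ba, singled out after their values were seen, gave 76.2% of the H2B counts. The other 14 H2B genes summed to 7.36 ± 1.97 CPM in mutated lymphomas, 14.9 ± 10.6 in unmutated lymphomas and 7.93 ± 0.918 in thymus. The H2B sum thus ran the other way from most of its genes: gene by gene, 13 of 17 H2B genes had a fold change above 0 in lymphomas against thymus, and 13 had one below 0 in mutated against unmutated lymphomas. The 15 H2A genes other than Hist1h2ao and Hist1h2ap, whose proteins pair with H2B, summed to 13.1 ± 3.0 CPM in mutated lymphomas, 21.0 ± 10.5 in unmutated lymphomas and 15.5 ± 1.14 in thymus. The ranges of the sets overlapped in every family.

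Set against thymus, no histone gene passed the test in the lymphomas as a whole. With edgeR's quasi-likelihood test, 0 of 65 had an adjusted p under 0.05, where 26.1% of all 15739 rows tested did (12.3% higher and 13.8% lower). At an unadjusted p under 0.05 it was 0 of 65, where 37.8% of all rows passed. No member had every lymphoma above every thymus library, or every lymphoma below, where 5.2% and 7.22% of all rows did. DESeq2 also called 0, limma on the deposited TPM 0, and limma-voom 1, Hist3h2ba. Of the rows given an adjusted p, DESeq2 called 31.8%, limma on log2(TPM + 1) 27.5% and limma-voom 28.9%. The fold change lay above 0 in 50 of the 65 genes and in 53.6% of all rows, with a median log2 fold change of 0.47, against 0.07 over all rows. Family medians were 0.78 for H1, 0.23 for H2A, 0.50 for H2B, 0.75 for H3 and 0.51 for H4. The median over members was 0.13 when lymphomas 30, 31 and 35 were left out together, against 0.10 over all rows. That choice was made after seeing the data. With limma on log2(TPM + 1) the median over members was 0.08, against -0.03 over all rows.

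**Figure D2:**
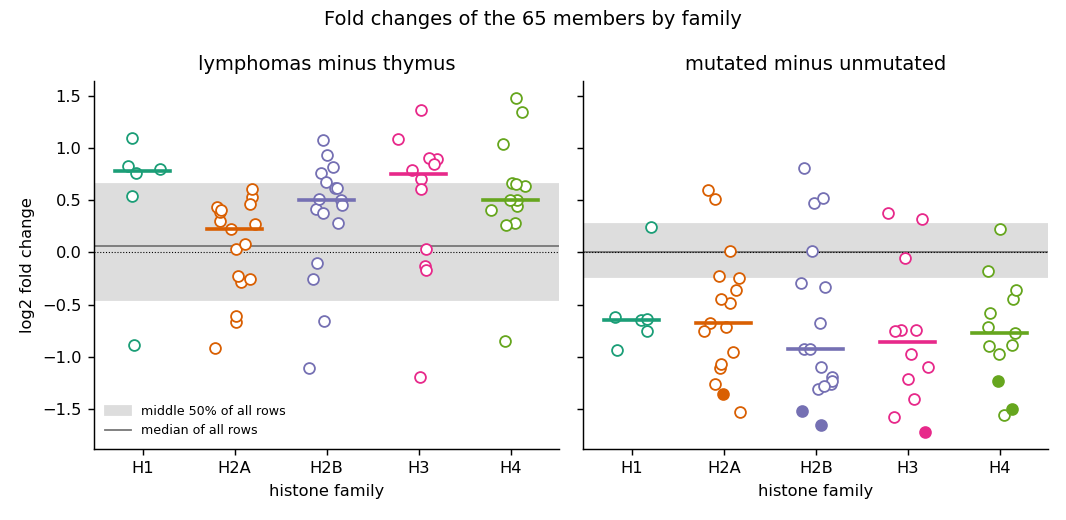
Log2 fold changes (vertical axis) of the 65 genes by histone family, for lymphomas minus thymus on the left and mutated minus unmutated lymphomas on the right. Filled points passed an adjusted p of 0.05 and open points did not, the coloured bars are family medians, and the grey band and line are the middle 50% and the median of all rows; between the sets all 5 family medians lie below the band.

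In mutated compared with unmutated lymphomas 6 genes were lower and 0 higher, from 4 families: Hist1h3c (H3), Hist1h2ag (H2A), Hist1h4b and Hist1h4d (H4), and Hist1h2bk and Hist1h2bm (H2B). All lie in the Hist1 cluster, which holds 52 of the 65 genes. The 6 calls are 9.23% of the 65 genes, where 3.98% of all rows passed in either direction, 2.19% lower and 1.79% higher. At an unadjusted p under 0.05, 29 members were lower and 1 higher, where 10.6% of all rows were lower and 10.9% higher. The fold change was below 0 in 54 of 65 members and in 49.1% of all rows. The median log2 fold change was -0.75 over members and 0.01 over all rows.

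Hist1h3c, one of many genes for the replication-dependent H3 protein, had 0.707 to 4.05 CPM in mutated lymphomas (median 1.96) and 1.5 to 15.3 CPM in unmutated lymphomas (median 5.81), against 2.20, 2.68 and 3.50 CPM in thymus. The highest values were in unmutated lymphomas 30 (15.3 CPM), 35 (14.3 CPM), 31 (8.58 CPM), 32 (8.52 CPM) and 20 (7.78 CPM), all above every mutated lymphoma, while the other 5 unmutated lymphomas lay within the range of the mutated set. The log2 fold change was -1.72 (SE 0.40, edgeR adjusted p = 0.0237). It rests on 14 to 402 counts per library.

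Hist1h2ag, an H2A gene, had 0.909 to 3.94 CPM in mutated lymphomas (median 1.58) and 1.5 to 10.4 CPM in unmutated lymphomas (median 4.18), against 2.12, 2.34 and 2.96 CPM in thymus. The same 5 unmutated lymphomas exceeded every mutated one, and the log2 fold change was -1.36 (SE 0.33, edgeR adjusted p = 0.0273). Much of its sequence is shared: 23.8% of its 100-base stretches were its own, and most of the rest also occur in Hist1h2ao and Hist1h2ap.

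Of the H4 genes, Hist1h4b had 0.253 to 1.28 CPM in mutated lymphomas (median 0.747) and 0.261 to 4.64 CPM in unmutated lymphomas (median 1.60), against 0.432, 0.475 and 0.590 CPM in thymus. Its log2 fold change was -1.5 (SE 0.39, edgeR adjusted p = 0.0338), with lymphomas 20, 30, 31, 32 and 35 above the mutated range. Hist1h4d, whose annotated sequence is wholly its own at 100 bases, had 0.960 to 2.24 CPM in mutated lymphomas (median 1.60) and 0.849 to 9.37 CPM in unmutated lymphomas (median 2.77), against 1.53, 1.73 and 1.79 CPM in thymus. Here 8 of the 10 unmutated lymphomas exceeded every mutated one and lymphomas 18 and 21 did not. The log2 fold change was -1.23 (SE 0.33, edgeR adjusted p = 0.0391).

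Of the H2B genes, Hist1h2bk had 0.253 to 1.43 CPM in mutated lymphomas (median 0.888) and 0.478 to 7.75 CPM in unmutated lymphomas (median 2.32), against 0.900, 1.17 and 1.34 CPM in thymus. Its log2 fold change was -1.65 (SE 0.45, edgeR adjusted p = 0.0398), and 6 of 10 unmutated lymphomas were above the mutated range. Hist1h2bm had 0.266 to 1.04 CPM in mutated lymphomas (median 0.604) and 0.392 to 4.78 CPM in unmutated lymphomas (median 1.12), against 0.748, 0.792 and 0.840 CPM in thymus. Its log2 fold change was -1.52 (SE 0.41, edgeR adjusted p = 0.0398), and the highest values were 4.78 CPM in lymphoma 31 and 4.66 CPM in lymphoma 30. For all 6 genes the ranges of the sets overlapped.

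**Figure D3:**
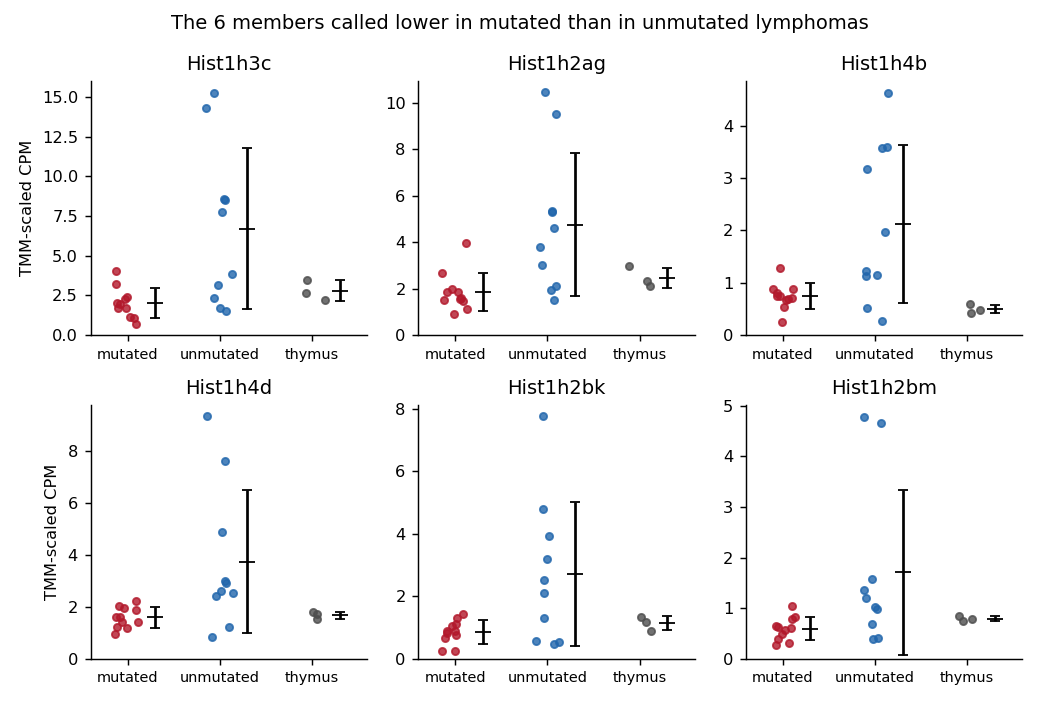
TMM-scaled CPM (vertical axes, each starting at 0) of the 6 genes called lower in mutated than in unmutated lymphomas, with 1 point per library for mutated lymphomas, unmutated lymphomas and thymus, and the mean with its SD beside each group. The unmutated points spread upward, to 15.3 CPM for Hist1h3c, from a base that overlaps the mutated points.

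The calls rest on few libraries. Lymphomas 30, 31 and 35 were left out together after seeing the data. In that fit edgeR called 0 members, where it called 3.44% of all rows. At an unadjusted p under 0.05, 4 members were lower and 2 higher. The median log2 fold change was -0.21 over members and 0.02 over all rows. The 6 folds then lay between -1.02 (Hist1h3c) and -0.47 (Hist1h4d). Leaving out 1 library at a time gave 1 call without lymphoma 30 or 35, 2 without 17, 3 without 7, 9, 10 or 15 and 12 without 21. The share of all rows called changed as well, from 3.98% to 2.01% without lymphoma 30, 2.32% without 35 and 2.3% without 17. It was 2.92, 2.64, 2.84 and 3.59% without 7, 9, 10 and 15, and 3.98% without 21. Hist1h3c was called in all 24 such fits. DESeq2 called 17 members lower, where it called 9.73% of the rows it gave an adjusted p in either direction. Limma-voom called 1 (Hist1h2ag), where it called 2.5% of all rows. Limma on the deposited TPM called 0, where it called 3.14% of the rows it tested on log2(TPM + 1). The median log2 fold change over members was -0.59 with limma-voom (-0.01 over all rows) and -0.34 with limma on log2(TPM + 1) (0.04 over all rows).

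Over all members of a family, the median log2 fold changes between the sets were -0.64 for H1, -0.67 for H2A, -0.93 for H2B, -0.86 for H3 and -0.77 for H4. The H3 genes Hist1h3a (-1.58, SE 0.46, edgeR adjusted p = 0.0535) and Hist1h3h (-1.40, SE 0.45, edgeR adjusted p = 0.0741) missed the threshold. Hist1h4i, the most abundant H4 gene, had 3.76 to 15.5 CPM in mutated lymphomas (median 7.92) and 4.05 to 18.8 CPM in unmutated lymphomas (median 11.8), against 5.87, 7.23 and 7.83 CPM in thymus. Its log2 fold change between the sets was -0.45 (SE 0.25, edgeR adjusted p = 0.314). The abundant pair lay closer together: Hist1h2ao had a log2 fold change of -0.23 (SE 0.22, edgeR adjusted p = 0.576) and Hist1h2ap of -0.49 (SE 0.17, edgeR adjusted p = 0.0929). Of the H1 genes, Hist1h1d (H1.3) and Hist1h1e (H1.4) had log2 fold changes of -0.62 (SE 0.44, edgeR adjusted p = 0.442) and -0.64 (SE 0.32, edgeR adjusted p = 0.255), and that of Hist1h1d turned to 0.12 without lymphoma 31, which held 8.77 CPM against at most 1.97 CPM in the rest of its set. Hist2h2bb, an H2B gene, was likewise highest in lymphoma 31 (6.33 CPM), and had a log2 fold change of -0.93 (SE 0.41, edgeR adjusted p = 0.187).

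**Figure D4:**
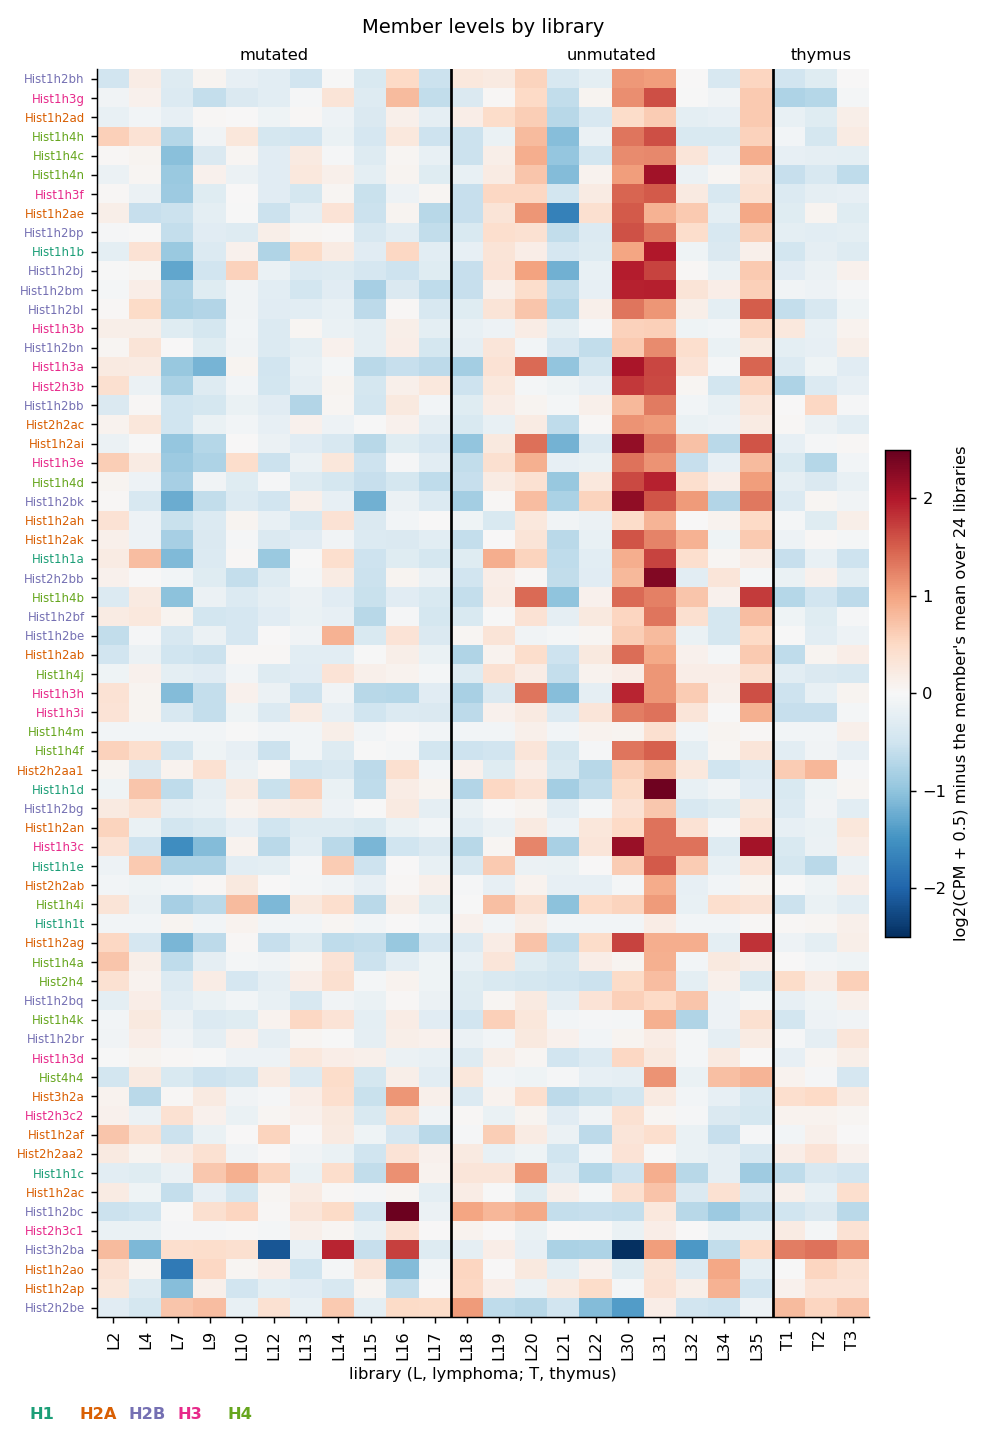
Level of each of the 65 genes (rows) in each library (columns; mutated lymphomas left, unmutated lymphomas middle, thymus right), as log2(CPM + 0.5) minus the gene's mean over the 24 libraries, on a colour scale clipped at both ends. Rows are ordered by their correlation with the summed other members and their names are coloured by family; lymphomas 30, 31, 35 and 20 are high for most rows and Hist2h2be stands at the bottom with another pattern.

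Across libraries the members tended to be high or low together, and the libraries highest for most members were unmutated. As the map of members by library shows, lymphoma 31 had the highest lymphoma value for 32 members, lymphoma 30 for 15 and lymphoma 35 for 4, which together is 51 of 65. Compared with the highest thymus library, 56 members were higher in lymphoma 31, 48 in lymphoma 30, and 42 in each of lymphomas 20 and 35. The counts were 33, 32 and 29 in mutated lymphomas 2, 4 and 16. In unmutated lymphomas 32, 22, 34, 18 and 21 they were 27, 24, 18, 11 and 3. At the other end, 43 members in lymphoma 21, also unmutated, 41 in lymphoma 7 and 39 in lymphoma 15 lay below the lowest thymus library. For single libraries, the shares of all rows that were highest or lay outside the thymus range were not computed. These counts are thus not read as particular to the histone genes. For 54 of 65 members the SD of log2(CPM + 1) was larger in the unmutated than in the mutated set. The like share over all rows was not computed. Only 29 members had a mean of at least 1 CPM, and at lower values this SD depends on the mean. The depths of these libraries overlapped: lymphomas 30, 31 and 35 held 18.5, 30.8 and 28.5 M counts, and lymphomas 7, 15 and 21 held 18.9, 21.7 and 15 M. Over the 8 other genes with a mean of at least 10 CPM around the Hist1 cluster on chromosome 13, the median log2 ratio to the thymus mean was -0.01 in lymphoma 30, -0.12 in lymphoma 31 and -0.27 in lymphoma 35, and between -0.27 and 0.23 in all lymphomas.

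Each set was also compared with thymus, with the same 3 thymus libraries in both comparisons. In mutated lymphomas edgeR called 0 of 65 members, where it called 21.9% of all rows (10.5% higher and 11.4% lower). DESeq2 and limma-voom also called 0, where DESeq2 called 27.7% of the rows it gave an adjusted p and limma-voom 25.2% of all rows. At an unadjusted p under 0.05, edgeR had 1 member, which was lower, where 35.5% of all rows passed and 17.5% were lower. The median log2 fold change was -0.06 over members and 0.05 over all rows. In unmutated lymphomas 1 member was higher and 1 lower, where 30% of all rows passed (14.5% higher and 15.5% lower). The median was 0.85 over members, against 0.05 over all rows, with 53 of 65 members and 52.3% of all rows above 0. It was 0.22 without lymphomas 30, 31 and 35 (0.07 over all rows), and 0.30 with limma on log2(TPM + 1) (-0.05 over all rows). DESeq2 called 8 members higher and 1 lower, where it called 35.7% of the rows it gave an adjusted p, and limma-voom 0 higher. Hist1h4b was the member called higher: 8 of 10 unmutated lymphomas lay above the highest thymus library and 1 below the lowest, and the log2 fold change was 2.08 (SE 0.67, edgeR adjusted p = 0.0211). In mutated lymphomas Hist1h4b had a log2 fold change of 0.58 (SE 0.60, edgeR adjusted p = 0.524) against the same thymus libraries. The Hist1h4b call was lost without each of the thymus libraries and without lymphomas 30, 31 and 35 together (log2 fold change 1.53, edgeR adjusted p = 0.0618).

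Some members did not follow the rest, among them the H2B genes Hist2h2be, Hist3h2ba and Hist1h2bc. Hist2h2be, an H2B gene of the Hist2 cluster with an annotated transcript of 2620 bases and no stem-loop found, had 13.6 to 31.9 CPM in mutated lymphomas (median 24.5) and 6.80 to 39.6 CPM in unmutated lymphomas (median 13), against 27.1, 31 and 32.4 CPM in thymus. It was lowest in lymphoma 30, where most members were high, and highest in lymphoma 18. In unmutated lymphomas compared with thymus it was lower, with a log2 fold change of -0.96 (SE 0.35, edgeR adjusted p = 0.0427) and 9 of 10 libraries below the thymus range. That call was lost without each thymus library, without lymphoma 19, 20, 21, 22, 30, 32 or 34, and without lymphomas 30, 31 and 35 together (-0.90, edgeR adjusted p = 0.0666). In mutated lymphomas the log2 fold change of Hist2h2be against thymus was -0.43 (SE 0.36, edgeR adjusted p = 0.409).

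Hist3h2ba, an H2B gene on chromosome 11, spanned a wide range. It had 0.512 to 16.3 CPM in mutated lymphomas (median 5.41) and 0.169 to 8.74 CPM in unmutated lymphomas (median 2.88), against 9.16, 10.3 and 10.9 CPM in thymus. All 10 unmutated and 9 of the 11 mutated lymphomas lay below the thymus range, and lymphomas 14 (16.3 CPM) and 16 (14.1 CPM) above it. Against thymus the log2 fold change was -1.10 (SE 0.67, edgeR adjusted p = 0.232) in all lymphomas, -0.78 (SE 0.72, edgeR adjusted p = 0.466) in mutated lymphomas and -1.58 (SE 0.70, edgeR adjusted p = 0.0918) in unmutated lymphomas. In the unmutated set limma-voom and both TPM fits called Hist3h2ba lower, and DESeq2 did not. EdgeR called it lower there without lymphoma 31, and without lymphomas 30, 31 and 35 together. In these settings 30.4 to 31.8% of all rows were called. Hist1h1c (H1) and Hist1h2bc (H2B), both of the Hist1 cluster, were both highest of all lymphomas in lymphoma 16 (15.4 CPM and 31.1 CPM). In lymphomas 30 and 35, where most members were high, they stood at 4.50 and 3.39 CPM for Hist1h1c, against 4.14 to 4.96 CPM in thymus, and at 3.32 and 3.17 CPM for Hist1h2bc, against 3.10 to 4.01 CPM in thymus. Hist1h2af, an H2A gene, had medians of 4.46 CPM in mutated lymphomas, 4.37 CPM in unmutated lymphomas and 4.49 CPM in thymus.

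**Figure D5:**
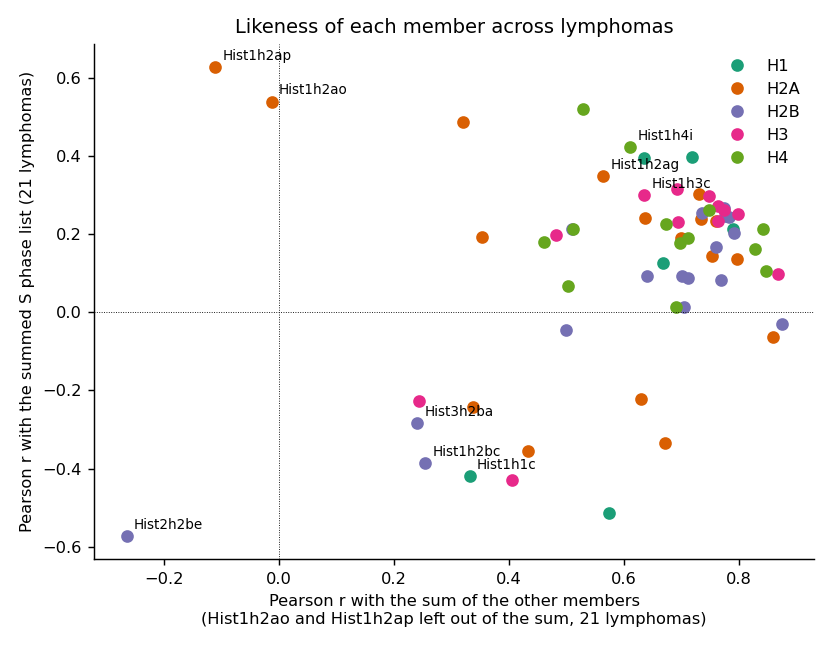
For each of the 65 genes, the Pearson correlation over the 21 lymphomas with the summed other members, Hist1h2ao and Hist1h2ap left out of the sum (horizontal axis), and with the summed S phase list (vertical axis), coloured by family. Most members lie at the right, Hist1h2ao and Hist1h2ap at the top left and Hist2h2be at the bottom left with r of -0.57 to the S phase list.

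Likeness across the 21 lymphomas was described with Pearson correlations of log2(CPM + 1), with no test, since the libraries share scaling and, for alike copies, reads. Over the 2080 pairs of members the median r was 0.53. The like value over pairs of other genes was not computed, so this likeness is not read as particular to the histone genes. With the sum of the other members, Hist1h2ao and Hist1h2ap left out, 30 members had r of at least 0.7 and 6 had r under 0.3. Hist1h3c was most like Hist1h2ag (r = 0.97, rho = 0.93, and r = 0.95 without the 2 lymphomas farthest from the median). Hist1h1c went with Hist1h2bc (r = 0.81, rho = 0.84), and Hist1h2ao with Hist1h2ap (r = 0.78, rho = 0.65). Hist1h3c and Hist2h2be ran opposite ways (r = -0.56, rho = -0.56).

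The summed S phase list of 30 replication genes did not follow the sum of the 63 members other than Hist1h2ao and Hist1h2ap. Its r with that sum was -0.01 (rho = -0.06, and -0.13 without the 2 farthest lymphomas, 7 and 34). Abundant members weigh most in the sum, such as Hist2h2be with a mean of 20.5 CPM, and single members differed. With Hist1h2ao r was 0.54, but rho was -0.001 and r was -0.16 without lymphomas 7 and 34, so this relation rests on those samples. Hist1h2ap had r = 0.63 and rho = 0.41, with r = 0.23 without them. Hist2h2be had r = -0.57 and rho = -0.63, and r = -0.55 without them. Hist1h1c had r = -0.42 and rho = -0.61, and r = -0.70 without them. Hist1h2bc had r = -0.39 and rho = -0.55, and Hist3h2ba r = -0.28 and rho = -0.35. On the other side, Hist1h4i had r = 0.42 and rho = 0.36, and r = 0.26 without lymphomas 7 and 34. Hist1h3c had r = 0.30 and rho = 0.38, and r = 0.19 without those lymphomas. The highest S phase sum, 12353 CPM in lymphoma 34, stood beside 70.5 CPM for the 63 genes, and lymphoma 31, with 7385 CPM, beside 221. These S phase sums are TMM-scaled and the printed sums of the 63 genes are not, while the correlations used TMM-scaled values for both.

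Of the genes that make and handle histones, the shares that passed the test in lymphomas compared with thymus were near the 26.1% of all rows called there. In lymphomas compared with thymus, 2 of 25 genes of histone transcription and mRNA processing were higher and 3 lower, where 12.3% of all rows were higher and 13.8% lower, the median log2 fold change being 0.17 against 0.07 over all rows. Npat, the coactivator of these genes, had 72.0 to 123 CPM in mutated lymphomas (median 94.5) and 55.1 to 107 CPM in unmutated lymphomas (median 89.8), against 50.4, 70.5 and 74.2 CPM in thymus, with 17 of 21 lymphomas above thymus. It rose, with a log2 fold change of 0.49 (SE 0.18, edgeR adjusted p = 0.0450). Cpsf3, the endonuclease that cuts histone pre-mRNA, also rose (0.48, SE 0.13, edgeR adjusted p = 0.00758), while E2f2, a cell-cycle transcription factor, and Hinfp, which binds H4 promoters, fell. Their log2 fold changes were -1.65 (SE 0.25, edgeR adjusted p = 3.77e-05) and -0.43 (SE 0.13, edgeR adjusted p = 0.0149). Slbp had a log2 fold change of -0.13 (SE 0.22, edgeR adjusted p = 0.685) against thymus and -0.32 (SE 0.14, edgeR adjusted p = 0.195) between the sets. In mutated compared with unmutated lymphomas 3 of the 25 fell and 0 rose, where 2.19% of all rows were lower: Snrpd3 and Snrpe, shared Sm proteins of small nuclear RNPs, and Ncbp2, a cap-binding subunit, in that order with log2 fold changes of -0.49 (SE 0.10, edgeR adjusted p = 0.0142), -0.39 (SE 0.10, edgeR adjusted p = 0.0394) and -0.46 (SE 0.13, edgeR adjusted p = 0.0458). Of the 11 decay genes 0 rose and 3 fell against thymus, where 13.8% of all rows fell, among them Lsm1, a subunit of the ring that binds histone mRNA tails during decay (-0.52, SE 0.11, edgeR adjusted p = 0.000922).

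Among 22 histone chaperones 5 rose and 1 fell in lymphomas compared with thymus, where 26.1% of all rows were called. The importin Ipo4, which carries histones to the nucleus, was among those that rose (log2 fold change 1.60, SE 0.23, edgeR adjusted p = 2.1e-05). Between the sets edgeR called 0 of the 22, with 10 at an unadjusted p under 0.05, where 21.5% of all rows passed. Of the 30 S phase genes 5 rose and 0 fell against thymus, where 12.3% of all rows rose and 13.8% fell, among them Pole, a leading-strand polymerase subunit (0.99, SE 0.27, edgeR adjusted p = 0.00795), and Rrm1, a subunit of ribonucleotide reductase (0.77, SE 0.21, edgeR adjusted p = 0.00979). In mutated lymphomas 4 of the 30 rose against thymus, where 10.5% of all rows rose, and in unmutated lymphomas 13, where 14.5% did. Between the sets edgeR called 0, with 6 at an unadjusted p under 0.05, where 21.5% of all rows passed. Of 20 G2 and mitosis genes 5 were lower in mutated than in unmutated lymphomas and 0 higher, where 2.19% of all rows were lower, including Aurka and Cdk1, both mitotic kinases. The log2 fold change of Aurka was -0.53 (SE 0.12, edgeR adjusted p = 0.020) and that of Cdk1 -0.40 (SE 0.10, edgeR adjusted p = 0.0354). The part of these proliferation differences in the histone differences was not tested.

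Replication-independent histone genes mostly give polyadenylated mRNAs. Per length, H3f3b averaged 1313 TPM in lymphomas and 1523 TPM in thymus, where Hist1h2ao averaged 399.5 TPM in lymphomas and 513 TPM in thymus. H3f3b, a gene for the variant H3.3, had 813 to 1559.8 CPM in mutated lymphomas and 1018 to 1883 CPM in unmutated lymphomas, against 1308 to 1416 CPM in thymus. H1f0, a linker histone known from differentiated, slowly dividing cells, rose in lymphomas: it had 96.8 to 634 CPM in mutated and 88.3 to 686 CPM in unmutated lymphomas, against 71.2, 77.2 and 79.6 CPM in thymus, with all 21 lymphomas above the thymus range (log2 fold change 2.36, SE 0.52, edgeR adjusted p = 0.00190). Of all rows, 5.2% had every lymphoma above every thymus library. H2afz, the variant H2A.Z, was lower in mutated lymphomas than in unmutated lymphomas, with medians of 210.3 CPM in mutated and 319.8 CPM in unmutated lymphomas and 215 CPM in thymus (log2 fold change -0.52, SE 0.13, edgeR adjusted p = 0.0313). It was the only one called between the sets of 11 replication-independent histone genes, where 3.98% of all rows were called. In lymphomas compared with thymus 1 of the 11 was higher and 3 were lower, where 12.3% of all rows were higher and 13.8% lower. The median log2 fold change of the 11 against thymus was -0.18, against 0.07 over all rows. H2afx and H3f3a had log2 fold changes between the sets of 0.04 (SE 0.16, edgeR adjusted p = 0.906) and 0.01 (SE 0.09, edgeR adjusted p = 0.956), and against thymus of -0.47 (SE 0.21, edgeR adjusted p = 0.104) and -0.18 (SE 0.12, edgeR adjusted p = 0.274).

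The markers of other cells differed between lymphomas and thymus, and fewer were called between the sets. All 12 macrophage markers and 7 of 9 fibroblast markers rose in lymphomas compared with thymus, while 8 of 9 thymic epithelial, 8 of 8 neutrophil and 5 of 9 T lineage markers fell, where 12.3% of all rows rose and 13.8% fell. Summed macrophage markers were 314 to 1267 CPM in lymphomas and 149 to 223 CPM in thymus, and summed T lineage markers 1983 to 6629 CPM in lymphomas and 8425 to 9749 CPM in thymus. None of the T lineage markers was at 0 in all lymphomas. The 1 marker called between the sets was the erythroid gene Hbb-bt, higher in mutated lymphomas (2.10, SE 0.57, edgeR adjusted p = 0.0398), with summed erythroid markers of 7.00 to 345 CPM in mutated, 11.9 to 53.9 CPM in unmutated lymphomas and 33.7 to 39.9 CPM in thymus. At an unadjusted p under 0.05, 8 of 9 erythroid, 5 of 8 neutrophil and 3 of 9 fibroblast markers differed between the sets, where 21.5% of all rows did. Summed fibroblast markers had medians of 247 CPM in mutated and 115 CPM in unmutated lymphomas. Their ranges overlapped, at 32.7 to 1030 CPM and 39.8 to 270 CPM. In lymphomas 30, 31 and 35 the summed macrophage markers were 492.8, 413 and 386 CPM and the summed T lineage markers 3468, 6629 and 3556 CPM. The part of other cells in the histone levels was not tested.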

How the data were processed

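Poly(A) RNA-seq counts per gene and TPM were deposited by the authors for 24 libraries. Per the submitters' processing notes, reads were handled with HISAT2 2.0.1, cutadapt 1.9.1, SAMtools, HTSeq 0.6.1 and edgeR on GRCm38.p6, with no role or order stated; no source used here gives the strand of counting or the gene lengths behind TPM. Rows with at least 10 counts in total were kept, so that every member was tested, scaled by TMM and fitted with edgeR 4.0.16 (quasi-likelihood, R 4.3.3), with Benjamini-Hochberg adjustment over 15739 rows and a threshold of 0.05. CPM are TMM-scaled, also in the sums of the other gene and marker lists and in all correlations. Only the printed sums of histone genes are CPM of unscaled library totals. DESeq2 1.42.0, and limma 3.58.1 with voom or on log2(TPM + 1) and log2(TPM + 0.1), were alternatives, beside leaving out single libraries. Of the statistics, only the edgeR test was tried on simulated counts, for lymphomas against thymus and for mutated against unmutated lymphomas. Named genes are the 3 members with the highest TPM of each family, those called, abundant members outside the Hist1 cluster, the highest member of each library, up to 4 genes per other list and 7 fixed genes. Members and lists were chosen with earlier results of these data known. Oligo(dT) capture limits all levels to captured RNA.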

Additional observations from a re-analysis of the deposited data

Results flagged for a closer look

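For 6 of 32 measures checked, 1 of the 10 unmutated lymphomas lay far above the others. Such a gap arises by chance in about 1 in 20 groups of normally distributed values. The values here are CPM without a log, for which such gaps may be commoner. The measures are not separate: 4 of the 6 are lymphoma 31, and its summed H1 family holds Hist1h1d and Hist1h1e. Lymphoma 31 was the highest for Hist1h1d, with 8.77 CPM against 0.457 to 1.97 CPM in the other unmutated lymphomas. It was also the highest for Hist1h1e, with 4.68 CPM against 0.860 to 2.34 CPM, for Hist2h2bb, with 6.33 CPM against 0.392 to 1.91 CPM, and for the summed H1 family, with 35.6 CPM against 7.10 to 20.2 CPM. Lymphoma 18 was the highest for Hist2h2be, with 39.6 CPM against 6.80 to 20.8 CPM. Lymphoma 35 was the highest for H3f3a, the replication-independent H3.3 gene, with 1143 CPM against 658 to 866 CPM.

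For 6 genes the change against thymus differed between mutated and unmutated lymphomas, by the edgeR test of the sets against each other (Benjamini-Hochberg adjusted p under 0.05). The difference in log2 fold change, mutated minus unmutated, was -1.72 for Hist1h3c, -1.65 for Hist1h2bk, -1.52 for Hist1h2bm, -1.5 for Hist1h4b, -1.36 for Hist1h2ag and -1.23 for Hist1h4d. The thymus libraries are the same in both arms and drop out of this difference. All 6 were lower in mutated lymphomas, and without lymphomas 30, 31 and 35 none passed the threshold, where 3.44% of all rows did.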

How the results depend on the processing

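Calls on single histone genes changed with the tool and with a few libraries. Between mutated and unmutated lymphomas, edgeR called 6 members lower; the count was 17 with DESeq2, 1 with limma-voom, 0 with limma on log2(TPM + 1), 0 on log2(TPM + 0.1), and 0 without lymphomas 30, 31 and 35 together, a setting chosen after seeing the data. Leaving out 1 library at a time gave 1 to 12 calls lower (1 without lymphoma 30 or 35, 2 without 17, 3 without 7, 9, 10 or 15, 12 without 21) and 0 to 1 higher (Hist2h2be without 18). In lymphomas against thymus, limma-voom called 1 member lower where edgeR called 0. In unmutated lymphomas against thymus, edgeR called 1 member higher; the count was 3 with edgeR's expression filter, 8 with DESeq2, 0 with limma-voom, 0 with either TPM fit, 0 without lymphomas 30, 31 and 35, and 0 to 5 over single libraries (2 without 7 or 32, 4 without 18, 5 without 21, 0 without any 1 thymus library). The count called lower, 1, was 2 with limma-voom, 3 with either TPM fit, 2 without lymphomas 30, 31 and 35, and 0 to 3 over single libraries (3 without 31; 0 without 19, 20, 21, 22, 30, 32, 34 or any 1 thymus library). The share of all rows called changed too. Between the sets it was 3.98% in the main fit, 2.5% with limma-voom and 3.44% without lymphomas 30, 31 and 35. Over single libraries it was 1.44 to 7.01%. In unmutated lymphomas against thymus it was 30% in the main fit and 18 to 31.6% over single libraries. The cause was not tested.

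Directions turned for members near 0 or driven by 1 library. Against thymus, Hist1h2af was -0.035 with limma-voom, -0.11 with either TPM fit and -0.012 to 0.090 over single libraries; Hist1h2ag was -0.00369 and -0.020 with the TPM fits and -0.024 without lymphomas 30, 31 and 35; Hist1h2bk was -0.022 on log2(TPM + 0.1); Hist1h2bm was -0.0016 and -0.0575 with the TPM fits and -0.14 without those lymphomas, where Hist2h2bb was -0.023. Between the sets, Hist1h1d was -0.74 to 0.12 over single libraries and 0.23 without lymphomas 30, 31 and 35, where Hist2h2bb was 0.0079; Hist1h2af was -0.039 with limma-voom and -0.082 to 0.10 over single libraries, and Hist1h2bc was -0.034 to 0.64. Of the values of single members under the alternatives, 1510 kept direction and side of the threshold, 84 were no longer past it, 11 were newly past it and 27 changed sign. No paired analysis was possible because the sets share no library number, and lymphomas and thymus share only number 2. A typical member has a median of 14.5 counts per library, which limits the precision of single genes.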
